A study of Mus musculus with 4 samples.

Results

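The TGF-beta and BMP genes described here are 49 genes of the secreted growth factors of this superfamily, their receptors, the proteins that hold the ligands back, the Smad proteins and the Id genes. They were taken by symbol from a table of 21881 genes, and each of the 49 symbols had a row. Messenger RNA had been sequenced from 4 cultures of immortalised, monoclonal mesenchymal stem cell lines of C57BL/6 mice, fibroblast-like cells of adult bone marrow. All 4 carried floxed Dicer alleles (Dicer f/f, labelled Dicer WT) and a retrovirus with a puromycin resistance gene (pMMP-puro). In the NR6A1 group this virus encoded Flag-HA-tagged NR6A1, in 1 library of clone 6 and 1 of clone 12. In the vector group the same 2 lines carried the virus without it, again with 1 library each. Each clone is a single line, and no repeat culture of a line is named, so the p-values below rest on how alike the 2 lines differed.

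NR6A1 (GCNF) belongs to the nuclear receptors without a known ligand and acts in embryos and germ cells, mainly to repress genes. In the series title Nr6a1 is a gene repressed by let-7 microRNAs in adult fibroblasts. Ligands of the TGF-beta and activin branch bind pairs of type II and type I receptor kinases, which phosphorylate Smad2 and Smad3, whereas BMP ligands act through other type I receptors on Smad1, Smad5 and Smad9. Smad4 joins both kinds in the nucleus, Smad6 and Smad7 oppose them, and the Id genes are direct BMP targets in many cells. In bone marrow stroma BMP signals favour bone formation, and TGF-beta signals favour growth of precursors, matrix production and contractile genes.

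The libraries were compared as FPKM, fragments per kilobase of transcript scaled to the number of mapped fragments. Judged from the steps between low values, the depth was about 21100000 and 20400000 reads for the NR6A1 libraries of clone 6 and clone 12, and 24200000 and 22900000 for the vector libraries. At these depths 1 read on a transcript of 2000 bases was worth 0.0231 to 0.0274 FPKM. Nr6a1 was at 783 FPKM in clone 6 and 598 FPKM in clone 12 with NR6A1, against 4.18 and 2.804 FPKM with vector (log2 change 7.27 ± 0.071, SE, limma adjusted p = 0.000488), values that may hold transcripts of the virus as well as endogenous ones. Of 12 mesenchymal stem cell and fibroblast markers, 11 averaged 1 FPKM or more, and Thy1 stayed at or below 0.0297 FPKM. With NR6A1, 4 of these 11 were higher in both clones and 1, Ly6a, lower, beside 28.9% and 29.4% of all genes tested. Ly6a was at 9.31 FPKM in clone 6 and 125 FPKM in clone 12 with NR6A1, against 18.98 and 317 FPKM with vector. Its log2 change was -1.14 ± 0.12 (adjusted p = 0.169, and 0.0304 without short RNA genes, the 1 of 10 alternatives with 4 libraries where it passed). It was higher in clone 12 by 3.80 ± 0.12 (adjusted p = 0.00362). Of the 8 blood cell markers, 7 stayed under 1 FPKM and Cd68 reached 2.16 FPKM. The 6 endothelial markers were all under 1 FPKM. Epithelial Epcam, Cdh1, Krt8 and Krt18 were under 1 FPKM too. Krt14 was at 0.615 FPKM in clone 6 and 0.298 FPKM in clone 12 with NR6A1, against 12.9 and 1.5 FPKM with vector.

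Of the 49 genes, 34 averaged 1 FPKM or more across the libraries and were tested. The other 15 were below that level. Most abundant was Id3, followed by Fstl1, Id1, Ltbp1 and Bmp4, while Bmp7, Gdf10, Mstn and Bmpr1b were listed at 0 in every library. A value of 0 in this kind of table can also mean that no estimate was made.

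**Figure D1:**
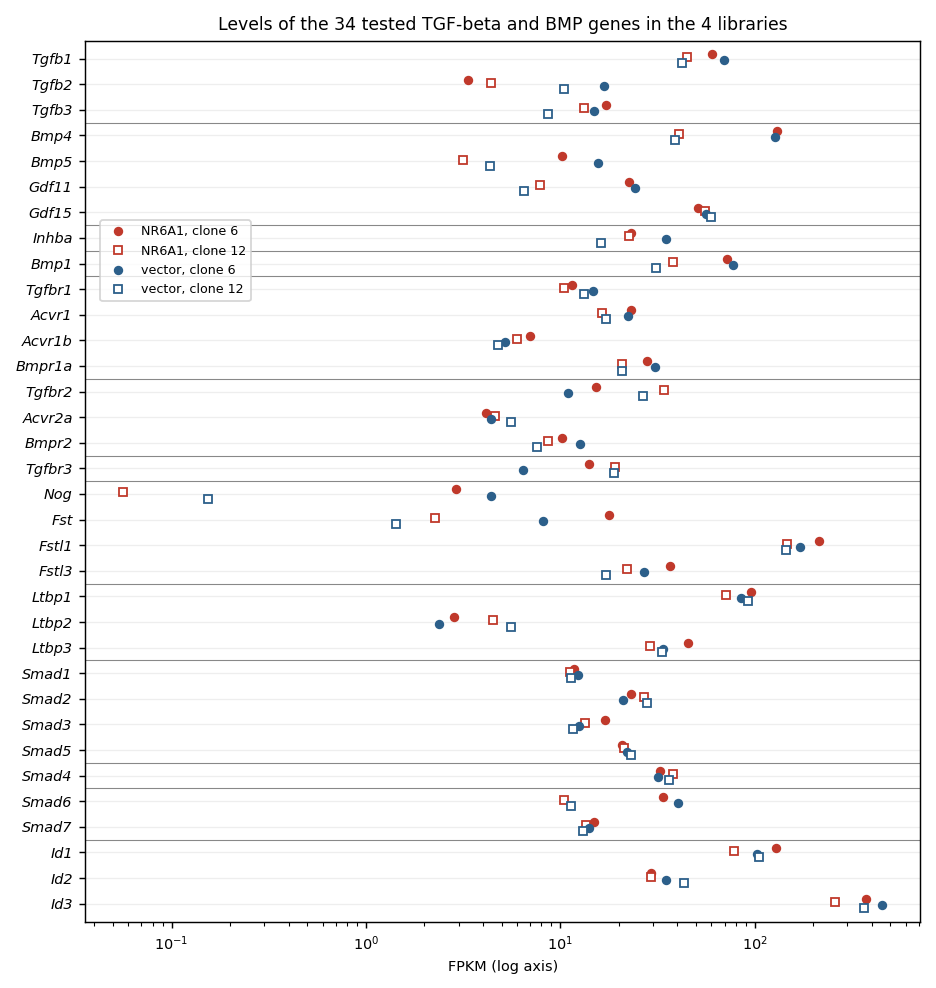
FPKM of the 34 tested genes in the 4 libraries on a log axis, grouped by role with lines between groups (ligands at the top, Id genes at the bottom). Filled circles are clone 6, open squares clone 12, red NR6A1 and blue vector. Bmp4, Bmp5, Gdf11, Nog, Fst and Smad6 split by clone, and Tgfb2 splits by virus.

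The first comparison asked which of these genes differed when NR6A1 was raised. No gene of the pathway passed the test over all genes (limma, clone as a block, Benjamini-Hochberg adjusted p under 0.05), 0 of 34, where 0.0353% of all 11346 genes tested did. Without short RNA genes, again 0 of 34 passed, beside 0.457% of all genes. At an unadjusted p under 0.05 there were 11 of 34 (32.4%), 6 higher and 5 lower with NR6A1, against 8.48% of all genes (3.47% higher and 5.01% lower). The higher ones were Fst, Tgfbr2, Fstl3, Tgfb3, Acvr1b and Smad3, and the lower ones were Tgfb2, Bmp5, Id2, Id3 and Tgfbr1. Both shares rest on the clone block: without it 1 of the 34, Tgfb2, had an unadjusted p under 0.05, beside 156 of all 11346 genes. With the block that count over all genes was 962. With a change of at least 0.2 log2 units in the same direction in both clones, 4 genes were higher and 5 lower, against 3.49% and 5.2% of all genes. The median log2 change of the 34 was -0.034, beside 0.00098 for all genes. With bulk RNA, less RNA of a gene per cell and fewer cells that make it cannot be told apart.

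**Figure D2:**
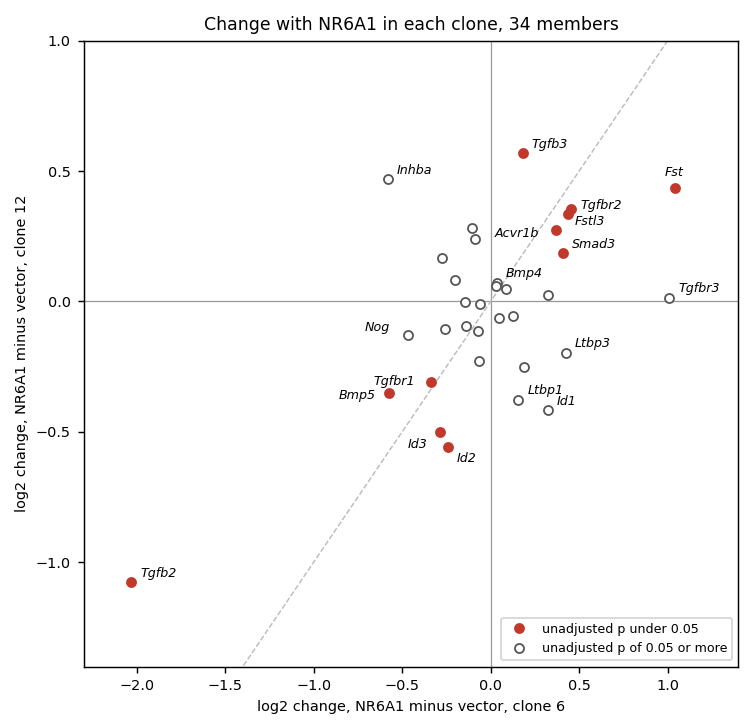
Log2 change of FPKM + 1, NR6A1 minus vector, in clone 6 (horizontal) and clone 12 (vertical) for the 34 tested genes; the dashed line marks equal change in both clones. Filled red points have an unadjusted p under 0.05 (11 of 34) and open points do not. Tgfb2 lies alone at the lower left, and Inhba and Id1 lie in quadrants of opposite sign.

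Among the TGF-beta ligands, the widest gap between the viruses was that of Tgfb2, a ligand of embryonic heart, skeleton and eye that needs the co-receptor Tgfbr3 for strong binding. It was at 3.36 FPKM in clone 6 and 4.42 FPKM in clone 12 with NR6A1, against 16.8 and 10.4 FPKM with vector. Both NR6A1 libraries lay below both vector libraries, and in vector cells the gene was higher in clone 6 than in clone 12. The mean was 3.89 ± 0.746 FPKM with NR6A1 and 13.6 ± 4.53 FPKM with vector (SD, n = 2 each). The log2 change was -2.03 in clone 6 and -1.08 in clone 12, fitted as -1.55 ± 0.26 (SE, limma adjusted p = 0.315). It was the lowest change of the 34. Without the short RNA genes, whose FPKM are unstable, its adjusted p was 0.0918, and over the 10 alternatives with 4 libraries it ran from 0.0918 to 0.99998, so that the gene passed in none of them. Krt14, an epithelial keratin at 0.615 and 0.298 FPKM with NR6A1 and 12.9 and 1.5 FPKM with vector, was also lower in both clones, while Epcam and Cdh1 were near 0 throughout. The part of such cells in the Tgfb2 result was not tested.

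Tgfb1, the main ligand of stroma, was at 60.7 FPKM in clone 6 and 44.7 FPKM in clone 12 with NR6A1, against 69.8 and 42.1 FPKM with vector, with opposite directions in the 2 clones. Tgfb3, the third ligand, was at 17.1 FPKM in clone 6 and 13.3 FPKM in clone 12 with NR6A1, against 14.97 and 8.66 FPKM with vector (0.38 ± 0.13 log2 units, adjusted p = 0.577). It was higher with NR6A1 in both clones, though the groups overlapped because clone 12 was lower. The 3 ligands therefore made up different shares of their summed FPKM. Tgfb2 held 4.15% in clone 6 and 7.08% in clone 12 with NR6A1, against 16.6% and 17.04% with vector. The share of Tgfb3 was 21.1% and 21.3% with NR6A1, against 14.7% and 14.1% with vector, and Tgfb1 held the rest. The FPKM ratio of Tgfb2 to Tgfb3 was 0.197 and 0.332 with NR6A1, against 1.12 and 1.204 with vector.

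The 250 bases before the RefSeq transcription start (build GRCm38.p6, 5′ to 3′ on the gene's strand) are shown for Tgfb2, the lowest change, and for Tgfbr2 and Fstl3, whose adjusted p were the smallest of the genes higher with NR6A1. Capitals mark matches to AGGTCA, the half-site of nuclear receptors, GGCGCC, an element bound by BMP Smads, or TATAAA, the TATA box, on either strand. NR6A1 is known to bind 2 half-sites set end to end.
Tgfb2, chr1:186705990-186706239, minus strand: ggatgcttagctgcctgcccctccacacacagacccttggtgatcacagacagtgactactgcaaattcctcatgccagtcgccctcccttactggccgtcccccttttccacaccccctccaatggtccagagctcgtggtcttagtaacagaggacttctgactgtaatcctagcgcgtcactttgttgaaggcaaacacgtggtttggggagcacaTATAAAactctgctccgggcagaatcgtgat
Tgfbr2, chr9:116175364-116175613, minus strand: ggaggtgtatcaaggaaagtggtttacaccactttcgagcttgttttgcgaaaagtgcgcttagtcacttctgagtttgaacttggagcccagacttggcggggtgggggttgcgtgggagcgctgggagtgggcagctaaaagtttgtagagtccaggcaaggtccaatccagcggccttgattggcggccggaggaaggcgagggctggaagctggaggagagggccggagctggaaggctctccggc
Fstl3, chr10:79777024-79777273, plus strand: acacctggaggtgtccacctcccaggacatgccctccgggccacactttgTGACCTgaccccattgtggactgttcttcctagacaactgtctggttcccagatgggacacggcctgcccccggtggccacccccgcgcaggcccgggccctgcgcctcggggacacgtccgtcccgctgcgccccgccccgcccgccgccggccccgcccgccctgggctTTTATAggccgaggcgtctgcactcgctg

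In these windows, Tgfb2 held a TATAAA match beginning 31 bases before the start and no half-site. Fstl3 held 1 half-site on the opposite strand, 200 bases before the start, and a TATAAA match on that strand at 29 bases. Tgfbr2 held none of the motifs. Of the 49 genes, 35 had a promoter in the table. A half-site stood in 5 of them (14.3%: Bmpr1b, Fstl3, Gdf15, Grem1 and Inha), beside 14.0% of all 32851 promoter windows of this length. Joined half-sites were in 0 of the 35 and in 2 of all windows. GGCGCC was in 8 of the 35 (22.9%), among them Id2, Id4 and Tgfbr1, beside 9.59% of all windows. TATAAA was in 6 (17.1%), beside 12.4%. Members were counted once per gene, with a match in any of its windows, whereas the background was counted per window. A match is a description of these letters and not a binding site.

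The TGF-beta receptors had unlike values. Tgfbr1, the type I kinase of the TGF-beta branch, was at 11.5 FPKM in clone 6 and 10.5 FPKM in clone 12 with NR6A1, against 14.8 and 13.3 FPKM with vector. Both NR6A1 libraries were below both vector libraries, with nearly equal log2 changes of -0.34 and -0.31 (fitted -0.32 ± 0.079, adjusted p = 0.467). Tgfbr2, the type II kinase that binds ligand first, was at 15.3 FPKM in clone 6 and 34.2 FPKM in clone 12 with NR6A1, against 10.9 and 26.6 FPKM with vector. Here each NR6A1 library was above the vector library of its own clone, while clone 12 was above clone 6 under either virus (0.40 ± 0.078, adjusted p = 0.355). The ratio of Tgfbr2 to Tgfbr1 was thus 1.33 in clone 6 and 3.26 in clone 12 with NR6A1, against 0.736 and 2.004 with vector. Tgfbr3, the co-receptor betaglycan, was at 14.03 FPKM in clone 6 and 19.2 FPKM in clone 12 with NR6A1, against 6.46 and 18.98 FPKM with vector. Its log2 change of 1.01 in clone 6 stood beside 0.014 in clone 12 (0.51 ± 0.26, adjusted p = 0.646). Whether the clones differ in this was not tested.

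**Figure D3:**
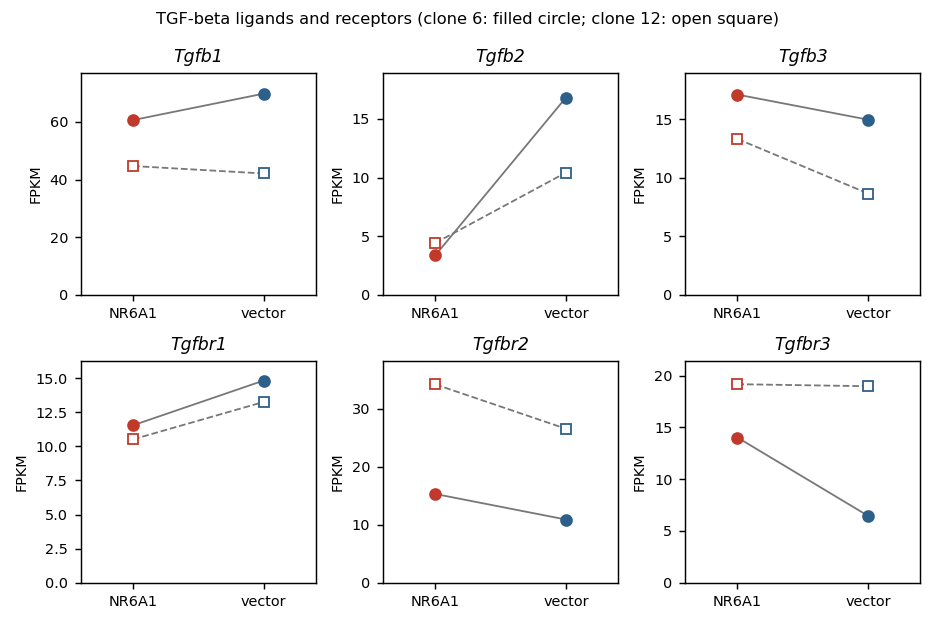
FPKM of the 3 TGF-beta ligands (top) and of 3 TGF-beta receptors (bottom) with NR6A1 (left, red) and vector (right, blue); lines join the libraries of one clone (filled circles clone 6, open squares clone 12), and each axis starts at 0. In both clones Tgfb2 and Tgfbr1 are lower with NR6A1 than with vector, and Tgfb3 and Tgfbr2 are higher.

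Of the activin and BMP receptors, Acvr1b, the type I receptor of activins, was the 1 with both NR6A1 libraries above both vector libraries. It was at 6.99 FPKM in clone 6 and 6.02 FPKM in clone 12 with NR6A1, against 5.19 and 4.81 FPKM with vector (0.32 ± 0.10, adjusted p = 0.561). The type II receptors Acvr2a and Bmpr2 were at 4.14 and 4.64 FPKM with NR6A1, against 4.39 and 5.61 with vector (Acvr2a) and at 10.3 and 8.65 FPKM with NR6A1, against 12.6 and 7.61 with vector (Bmpr2), with clone 6 before clone 12. Acvr1, a type I receptor mutated in the heritable bone-forming disease FOP, was at 23.2 and 16.4 FPKM with NR6A1, against 22.4 and 17.2 with vector. Bmpr1a, the BMP type I receptor most abundant here, was at 27.8 and 20.7 FPKM with NR6A1, against 30.8 and 20.7 with vector. The furthest change in a single clone among these 4 was -0.27 log2 units, of Bmpr2 in clone 6. Acvr2b and the endothelial receptor Acvrl1 reached no more than 0.662 and 0.166 FPKM, and Bmpr1b was listed at 0.

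Of the BMP and GDF ligands, 1 had an unadjusted p under 0.05 for the virus. Bmp5, a ligand of skeletal growth, was at 10.2 FPKM in clone 6 and 3.18 FPKM in clone 12 with NR6A1, against 15.7 and 4.33 FPKM with vector. It was lower with NR6A1 within each clone, but the clone 6 library with NR6A1 remained above both of clone 12 (-0.46 ± 0.11, adjusted p = 0.438). Bmp4, the most abundant BMP, was at 131 and 40.8 FPKM with NR6A1, against 128 and 38.7 with vector, with changes of 0.034 and 0.072. The ratio of Bmp4 to Bmp5 was 12.8 in both clones with NR6A1, against 8.16 in clone 6 and 8.93 in clone 12 with vector. Gdf11, a close relative of myostatin, was at 22.6 and 7.82 FPKM with NR6A1, against 24.2 and 6.48 with vector. Gdf15, a divergent member induced by cell stress, was at 51.1 and 55.6 FPKM with NR6A1, against 56.4 and 59.4 with vector, the narrowest range over the libraries among these ligands. Bmp2, a strong inducer of bone, was at 1.103 FPKM with NR6A1 and 1.21 FPKM with vector in clone 6 and listed at 0 in both clone 12 libraries. The other BMP and GDF genes (Bmp3, Bmp6, Bmp7, Gdf5, Gdf10 and Mstn) were at 0.05904 FPKM or less.

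Inhba, the activin A subunit, was at 23.2 FPKM in clone 6 and 22.7 FPKM in clone 12 with NR6A1, against 35.1 and 16.1 FPKM with vector. The vector libraries differed by clone and the NR6A1 libraries did not, so that the log2 change was -0.58 in clone 6 and 0.47 in clone 12. Inha and Inhbb, the other inhibin and activin subunits, reached 0.412 and 0.03599 FPKM. Bmp1, a protease that trims procollagen and cleaves the inhibitor chordin, was at 71.8 and 38.2 FPKM with NR6A1, against 77.2 and 31.2 with vector.

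Among the secreted inhibitors, the activin antagonists follistatin and follistatin-like 3 were both higher with NR6A1. Fst was at 17.8 FPKM in clone 6 and 2.28 FPKM in clone 12 with NR6A1, against 8.11 and 1.42 FPKM with vector. This was the highest fitted change of the 34 (0.74 ± 0.19, adjusted p = 0.467), with 1.04 in clone 6 and 0.43 in clone 12. Fstl3 was at 36.8 FPKM in clone 6 and 21.99 FPKM in clone 12 with NR6A1, against 26.9 and 17.2 FPKM with vector (0.38 ± 0.077, adjusted p = 0.3701). In both genes each NR6A1 library was above its own clone's vector library, and clone 12 stayed below clone 6. Nog, the BMP antagonist noggin, was at 2.897 FPKM in clone 6 and 0.0565 FPKM in clone 12 with NR6A1, against 4.39 and 0.154 FPKM with vector (-0.30 ± 0.20, adjusted p = 0.689), so that clone 12 was near 0 under both viruses. Fstl1, a secreted glycoprotein related to follistatin, was at 215 and 147 FPKM with NR6A1, against 172 and 145 with vector. Grem1 and Chrd, antagonists of BMPs, were at most 0.907 and 0.188 FPKM, and the highest Grem1 value was in the vector library of clone 12.

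The latent TGF-beta binding proteins tether the inactive ligand to the matrix. In all 3 the direction was opposite in the clones, higher with NR6A1 in clone 6 and lower in clone 12. Ltbp1 was at 95.4 and 70.8 FPKM with NR6A1, against 85.5 and 92.2 with vector. Ltbp3 was at 45.5 and 28.9 FPKM with NR6A1, against 33.6 and 33.3 with vector, with log2 changes of 0.43 and -0.20. Ltbp2, a family member that binds no TGF-beta, was at 2.85 and 4.52 FPKM with NR6A1, against 2.38 and 5.56 with vector.

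Of the Smad genes among the members 1 had an unadjusted p under 0.05 for the virus, Smad3, and Smad6 was split by clone. Smad9 is not a member and was counted in the other lists below. It was lower with NR6A1 by 0.29 log2 units in clone 6 and 0.31 in clone 12. The fitted change was -0.30 ± 0.091 (limma unadjusted p = 0.0321, adjusted p = 0.553). Smad9 was also lower in clone 12 than in clone 6 (-0.91 ± 0.091, adjusted p = 0.0193). Smad3, a transducer of TGF-beta and activin, was at 16.97 FPKM in clone 6 and 13.4 FPKM in clone 12 with NR6A1, against 12.5 and 11.6 FPKM with vector. Both values with NR6A1 were above both with vector (0.30 ± 0.097, adjusted p = 0.566). Its partner Smad2 was at 23.2 and 26.9 FPKM with NR6A1, against 21.1 and 27.98 with vector, and the common Smad4 at 32.5 and 37.9 FPKM with NR6A1, against 31.8 and 36.3 with vector. The BMP transducers Smad1 and Smad5 were at 11.8 and 11.2 FPKM with NR6A1, against 12.4 and 11.3 with vector (Smad1) and 20.9 and 21.3 FPKM with NR6A1, against 21.96 and 23.1 with vector (Smad5). The inhibitory Smad7 was at 14.96 and 13.5 FPKM with NR6A1, against 14.01 and 13.03 with vector. Smad6, which blocks BMP transducers, was at 33.8 and 10.4 FPKM with NR6A1, against 40.6 and 11.3 with vector.

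Id proteins bind and inactivate basic helix-loop-helix factors. Id2 was at 29.4 FPKM in clone 6 and 29.2 FPKM in clone 12 with NR6A1, against 34.9 and 43.6 FPKM with vector, with both NR6A1 libraries below both vector libraries (-0.40 ± 0.11, adjusted p = 0.4996). Id3, the most abundant of the 49 genes, was at 373 FPKM in clone 6 and 258 FPKM in clone 12 with NR6A1, against 455 and 365 FPKM with vector (-0.39 ± 0.09, adjusted p = 0.437). It was lower in both clones, although clone 6 with NR6A1 stood slightly above clone 12 with vector. Id1 was at 129 FPKM in clone 6 and 78.5 FPKM in clone 12 with NR6A1, against 103 and 105 FPKM with vector, close to equal in the vector cells and split by clone in the NR6A1 cells. Its log2 change was 0.32 in clone 6 and -0.42 in clone 12. Id4 reached 0.326 FPKM.

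The second comparison set the 2 lines against each other. Of the 34 genes, 14 differed between clone 12 and clone 6 (limma, virus as covariate, adjusted p under 0.05), 12 lower and 2 higher in clone 12, which is 41.2%. Over all genes tested 21.9% differed, 10.5% lower and 11.5% higher. The median log2 difference of the 34 was -0.33, beside 0.035 for all genes. Without short RNA genes 17 passed (14 lower and 3 higher, against 31.2% of all genes, 14.4% lower and 16.8% higher), and with no filter on low values 0 of 45 passed, as did 0 of all genes. With 1 library left out, in fits with no virus term, 0 to 7 passed: 7 when the NR6A1 library of clone 6 was dropped, 1 when its vector library was, and 0 when either clone 12 library was. The p-value says how alike this difference was under both viruses, for these 2 lines alone.

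Bmp4 was 1 of the ligands that fell in clone 12. It was at 40.8 (NR6A1) and 38.7 (vector) FPKM in clone 12, against 131 and 128 FPKM in clone 6. The 2 libraries of each clone were close, and the log2 difference was -1.68 ± 0.07 (SE, adjusted p = 0.00729). Gdf11 was at 7.82 (NR6A1) and 6.48 (vector) FPKM in clone 12, against 22.6 and 24.2 FPKM in clone 6 (-1.59 ± 0.11, adjusted p = 0.0142), and Bmp5 at 3.18 (NR6A1) and 4.33 (vector) FPKM in clone 12, against 10.2 and 15.7 FPKM in clone 6 (-1.53 ± 0.11, adjusted p = 0.0142, and -1.02 with 5 FPKM added). Tgfb1 was lower by a smaller step, at 44.7 (NR6A1) and 42.1 (vector) FPKM in clone 12, against 60.7 and 69.8 FPKM in clone 6 (-0.57 ± 0.1, adjusted p = 0.0353). The protease gene Bmp1 was at 38.2 (NR6A1) and 31.2 (vector) FPKM in clone 12, against 71.8 and 77.2 FPKM in clone 6 (-1.09 ± 0.12, adjusted p = 0.0205). Tgfb3 (-0.53 ± 0.13, adjusted p = 0.0564) passed without short RNA genes, with an adjusted p of 0.0261 (0.0261 to 0.157 over the alternatives with 4 libraries).

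Of the 4 tested secreted inhibitors among the members, Fst, Nog and Fstl3 were lower in clone 12, as was the inhibitory Smad6. Of the 5 tested in the list of other secreted inhibitors, Chrdl1 was lower (-1.87, adjusted p = 0.03099) and Nbl1 higher (1.12, adjusted p = 0.0367), and the median of that list was 0.17. Fst was at 2.28 (NR6A1) and 1.42 (vector) FPKM in clone 12, against 17.8 and 8.11 FPKM in clone 6 (-2.21 ± 0.19, adjusted p = 0.01605). This was the largest difference of the 34 with 1 FPKM added before taking logs. It was -2.67 with 0.1 FPKM added, where Nog was further apart, and -1.34 with 5 FPKM, where Bmp4 (-1.59) and Smad6 (-1.41) were. Nog was at 0.0565 (NR6A1) and 0.154 (vector) FPKM in clone 12, against 2.897 and 4.39 FPKM in clone 6 (-2.05 ± 0.20, adjusted p = 0.0185). The size of this difference depends on the number added before taking logs, from -0.75 with 5 FPKM to -4.20 with 0.1 FPKM, since clone 12 was near 0. Smad6 was at 10.4 (NR6A1) and 11.3 (vector) FPKM in clone 12, against 33.8 and 40.6 FPKM in clone 6 (-1.68 ± 0.083, adjusted p = 0.00917). Fstl3 followed with -0.67 ± 0.077 (adjusted p = 0.0215, and 0.089 with no virus term). Fstl1, at -0.39 ± 0.10, had an adjusted p of 0.0689 over all genes and 0.0339 without short RNA genes (0.0339 to 0.147 over the alternatives with 4 libraries).

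Promoter windows of Bmp4 and Smad6, which had the smallest adjusted p between the clones, are given in the same way as above. Neither window held a match to the motifs searched, so no letters are in capitals.
Bmp4, chr14:46390670-46390919, minus strand: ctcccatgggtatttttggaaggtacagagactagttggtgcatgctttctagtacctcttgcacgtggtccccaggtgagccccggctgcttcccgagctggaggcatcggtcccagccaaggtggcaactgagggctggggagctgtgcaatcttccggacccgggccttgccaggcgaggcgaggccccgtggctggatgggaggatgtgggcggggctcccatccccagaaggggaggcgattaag
Smad6, chr9:64022060-64022309, minus strand: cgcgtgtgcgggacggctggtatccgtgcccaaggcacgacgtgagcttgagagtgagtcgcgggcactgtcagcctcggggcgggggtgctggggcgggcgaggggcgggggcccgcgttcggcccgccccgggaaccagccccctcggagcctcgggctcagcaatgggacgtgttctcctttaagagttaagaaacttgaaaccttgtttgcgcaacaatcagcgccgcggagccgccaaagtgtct

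Receptors went both ways between the lines. Tgfbr2 was higher in clone 12, at 34.2 (NR6A1) and 26.6 (vector) FPKM in clone 12, against 15.3 and 10.9 FPKM in clone 6 (1.16 ± 0.078, adjusted p = 0.0137). Tgfbr3 was higher there by 0.92 ± 0.26, with 0.43 in NR6A1 cells and 1.42 in vector cells (adjusted p = 0.081, or 0.03396 without short RNA genes, and up to 0.205 under the other alternatives). The BMP type I receptor genes Bmpr1a (-0.48 ± 0.081, adjusted p = 0.03401) and Acvr1 (-0.42 ± 0.079, adjusted p = 0.03899) were lower. Among the remaining genes that passed, Id3 was lower in clone 12 (-0.42 ± 0.09, adjusted p = 0.0471) and Ltbp2 higher (0.74 ± 0.16, adjusted p = 0.0494). Id3 passed in 7 of 10 alternatives with 4 libraries (adjusted p 0.0214 to 0.214) and Ltbp2 in 5 of 9 (0.0212 to 0.135), where its difference was 0.40 with 5 FPKM added. With no trend in the variance, Tgfb1, Bmpr1a, Acvr1, Ltbp2 and Id3 did not pass (adjusted p 0.0549 to 0.0738). Smad2, Smad4 and Acvr2a were higher by 0.30, 0.20 and 0.21 log2 units, and none of them passed (adjusted p from 0.0819 to 0.236).

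**Figure D4:**
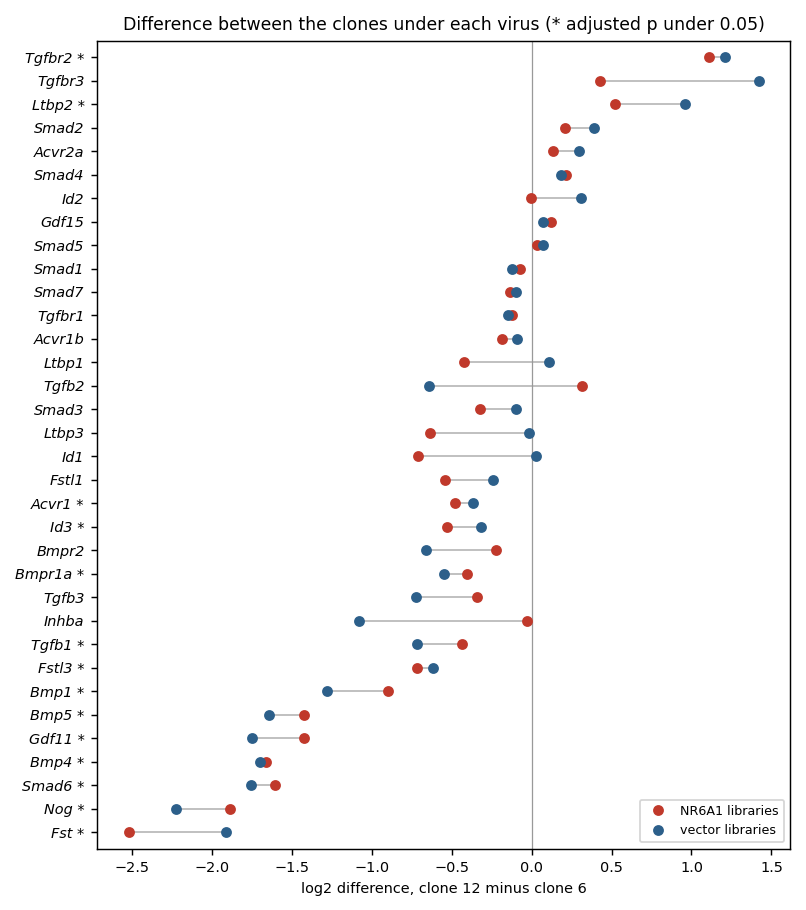
Log2 difference, clone 12 minus clone 6, of FPKM + 1 for the 34 tested genes, in the NR6A1 libraries (red) and the vector libraries (blue), ordered by the fitted value; a star marks an adjusted p under 0.05. Red and blue points lie close together for Bmp4, Smad6 and Tgfbr2, and far apart for Tgfb2, Inhba, Tgfbr3 and Id1.

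Other genes of the pathway were counted from lists chosen with earlier results known. All 16 other ligands, among them Nodal, Bmp8a and Amh, stayed at 0.667 FPKM or less. Of 8 further receptors and co-receptors 5 were tested, with a median log2 change of 0.094. The median was -0.055 over 5 tested of 13 other secreted inhibitors, 0.064 over 7 of 13 latency and activation genes, and -0.094 over 16 of 17 intracellular regulators. The most abundant of these genes was Thbs1, whose values are given with the other latency genes, and Emilin1, a matrix protein, was at 107 and 61.9 FPKM with NR6A1, against 83.4 and 72.8 with vector. Highest in the other lists were Eng, a co-receptor, at 55.4 and 43.5 FPKM with NR6A1, against 53.9 and 47.5 with vector; Twsg1, a secreted BMP modulator, at 42.8 and 42.1 FPKM with NR6A1, against 39.7 and 39.98 with vector; and Pmepa1, an inhibitor of TGF-beta signalling, at 42.3 and 40.8 FPKM with NR6A1, against 57.1 and 39.1 with vector. Ski, a repressor of Smads, was at 38.3 and 35.1 FPKM with NR6A1, against 34.9 and 31.96 with vector. None of these 4 lists had a member past the threshold for the virus, over all genes or without short RNA genes. At an unadjusted p under 0.05 there were 5 of the 7 latency genes, 1 of the 5 receptors, 1 of the 5 inhibitors and 1 of the 16 intracellular regulators, beside 8.48% of all genes.

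The latency and activation genes, named here after their values were seen, did not share a direction. Thbs1, thrombospondin, which activates latent TGF-beta, was at 274 FPKM in clone 6 and 172 FPKM in clone 12 with NR6A1, against 657 and 221 FPKM with vector (-0.81 ± 0.24, adjusted p = 0.548). Lrrc32, which displays latent TGF-beta on the cell surface, was at 0.876 FPKM in clone 6 and 5.65 FPKM in clone 12 with NR6A1, against 2.16 and 10.7 FPKM with vector (-0.78 ± 0.12, adjusted p = 0.275). Both were lower with NR6A1 in each clone. Higher in each clone were the protease gene Furin, which cuts the precursors (0.34 ± 0.073, adjusted p = 0.396), Ltbp4 (0.50 ± 0.11, adjusted p = 0.396) and the fibrillin gene Fbn1 (0.52 ± 0.14, adjusted p = 0.493).

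In lists chosen with earlier results known, genes that TGF-beta is known to regulate in fibroblasts were more often higher than lower with NR6A1. Those known to respond to BMP were more often lower. These counts depend on that choice, and neither direction was tested. In both clones 9 of 18 TGF-beta responsive genes were higher and 3 lower, against 28.9% and 29.4% of all genes. Their median log2 change was 0.19, beside 0.00098 for all genes. None passed over all genes, 9 of the 18 had an unadjusted p under 0.05, beside 8.48% of all genes, and 3 passed without short RNA genes, beside 0.457%. These 3, all higher, were Tagln, Col3a1 and Timp3. The 3 lower in both clones were Klf10 (log2 change -0.40 in clone 6 and -0.15 in clone 12), Cdkn2b (-0.13 and -0.21) and Junb (-0.081 and -0.022). Tagln, a contractile gene of smooth muscle and activated fibroblasts, was at 216 FPKM in clone 6 and 71.9 FPKM in clone 12 with NR6A1, against 102 and 25.7 FPKM with vector (1.26 ± 0.12, adjusted p = 0.147, and 0.0272 without short RNA genes, with 0.0272 to 0.99998 over the alternatives). Pmepa1, Skil and Ctgf, also known targets, had changes of -0.18, -0.092 and 0.057 and opposite directions in the clones. In both clones 3 of the 11 tested BMP responsive genes were higher and 7 lower. Their median was -0.24, with -0.44 for clone 6 and -0.069 for clone 12. None passed over all genes. At an unadjusted limma p under 0.05 there were 1 higher and 3 lower of the 11 (36.4%), beside 8.48% of all genes. Alpl, the bone alkaline phosphatase, was the 1 that passed without short RNA genes. It was at 228 FPKM in clone 6 and 6.85 FPKM in clone 12 with NR6A1, against 509 and 18.2 FPKM with vector (-1.22 ± 0.078, adjusted p = 0.0922, and 0.0132 without short RNA genes, with 0.0132 to 0.99998 over the alternatives). Dlx5, a homeobox gene of bone, was at 33.2 and 2.56 FPKM with NR6A1, against 62.9 and 4.11 with vector, and Smad9, the third BMP transducer, at 9.24 and 4.396 FPKM with NR6A1, against 11.5 and 5.69 with vector. Going the other way, Msx2, another homeobox gene, was at 7.16 and 1.91 FPKM with NR6A1, against 3.6 and 1.53 with vector, and Atoh8 at 38.02 and 15.5 FPKM with NR6A1, against 28.7 and 13.4 with vector. Between the lines 9 of the 11 BMP responsive genes differed (81.8%), 8 of them lower in clone 12, beside 21.9% of all genes (10.5% lower). Of the 18 TGF-beta responsive genes 61.1% differed too, 8 lower and 3 higher in clone 12. Sp7, a BMP responsive transcription factor of osteoblasts, was at 0.294 (NR6A1) and 0.459 (vector) FPKM in clone 12, against 50.6 and 120.1 FPKM in clone 6.

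**Figure D5:**
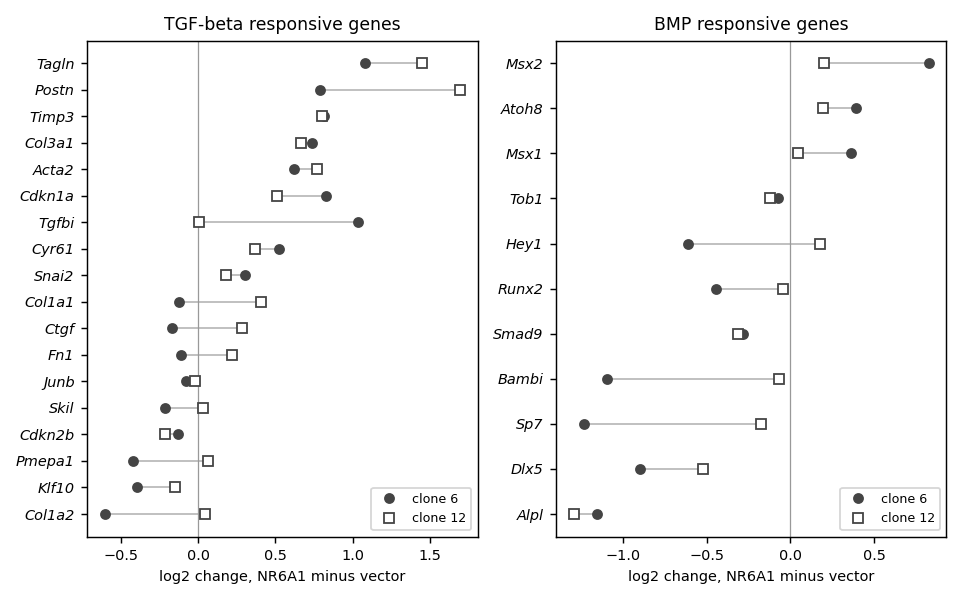
Log2 change of FPKM + 1, NR6A1 minus vector, of the tested genes known to respond to TGF-beta (left, 18 genes) and to BMP (right, 11 genes); filled circles are clone 6 and open squares clone 12. Tagln, Timp3 and Col3a1 lie to the right of 0 in both clones, and Alpl and Dlx5 to the left.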

How the data were processed

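The authors deposited 1 FPKM value per gene and library, and the submitters' processing notes name TopHat 1.2.0, Cufflinks 1.0.3 and build mm9. Neither the gene models nor a strand setting is given in the sources used here. Depth was estimated from 1823 genes with 1 transcript length of at least 1500 bases in a later annotation, taking the value of 1 read as inverse to the length less 210 bases. Between 50.1% and 52.7% of low values lay within 0.1 of a whole read, so no count test was run. By chance 20% would for a depth set beforehand. Here the depth and the 210 bases were those, within a fixed range, that gave the largest share, so 20% is not its chance level.

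Values were tested as log2(FPKM + 1), which understates the change of low genes, for the 11346 genes averaging 1 FPKM or more. Two-sided moderated tests came from limma 3.58.1 in R 4.3.3, fitted with virus and clone as terms and a trend of variance on mean, with Benjamini-Hochberg adjustment over all genes at 0.05. The fit left 1 residual degree of freedom (prior 2.9). Libraries were paired by clone, since per the labels' protocols both viruses were put on each line. Across genes the clone difference in NR6A1 and vector libraries correlated with r = 0.629, and with r = 0.873 without short RNA genes. The test was checked on simulated data with normal noise, the same change in both clones and no short RNA genes. The check therefore covered neither changes that differ between the clones nor the fit that holds short RNA genes. Short RNA genes (197 tested, by symbol) were left out in an alternative. The other alternatives were pseudocounts of 0.1 and 5, no filter, 5 FPKM, upper quartile and quantile scaling, no trend, a robust prior, no clone or virus term, a false discovery rate of 0.1 and each library left out.

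The members and lists were chosen with earlier results of these data known. Statistics are given for Nr6a1, for members past the threshold with or without short RNA genes and for the 6 highest and 6 lowest in each comparison; from each list come members past the threshold or up to 3 of the highest FPKM. Other genes were named after their values were seen. In the list of TGF-beta responsive genes 1 gene is not reported here and not counted. Promoters are from RefSeq (GRCm38.p6), and all other symbols were used as the deposited table gives them.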

Additional observations from a re-analysis of the deposited data

Results flagged for a closer look

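In 11 of the 34 genes the log2 change with NR6A1 had opposite signs in the 2 clones. The difference between the clones (clone 12 minus clone 6) was not tested, since each clone has 1 library per virus. It was 1.05 for Inhba and 0.44 for Bmpr2, 0.38 for Bmp1, 0.33 for Gdf11 and 0.28 for Tgfb1, all lower with NR6A1 in clone 6 and higher in clone 12. The reverse held for Id1 (-0.74), Ltbp3 (-0.62), Ltbp1 (-0.53), Ltbp2 (-0.44), Smad2 (-0.18) and Acvr1 (-0.11), which were higher with NR6A1 in clone 6 and lower in clone 12. Over all genes tested, 4731 of 11346 had no common direction, a larger share than among the 34.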

How the results depend on the processing

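No member passed for NR6A1 against vector under any alternative run, and each named gene kept its direction in the fits with 4 libraries. The count of all genes past the threshold, 4, was 7 with a pseudocount of 5, 2 with no filter, 38 with a robust prior, 51 without short RNA genes and 25 at a false discovery rate of 0.1; it was 0 (lowest) to 0 (highest) with 1 library left out and no replicate block. With all libraries and no replicate block, 4 genes and 0 members passed. Between clone 12 and clone 6 the count over all genes, 2490, was 0 with no filter, 1581 with no trend, 4163 at a false discovery rate of 0.1 and 41, 64, 110 and 889 (lowest 41, highest 889) with 1 library left out. Of the members, 14 in the main test, 9 passed with no trend, 0 with no filter and 0 to 7 with 1 library left out. The cause of these shifts was not tested. With 1 library left out both terms leave no residual degrees of freedom, so those fits drop a term and assume that the lone library varies like the others, and the value of a gene is then that of 1 clone or 1 virus alone. For the 14 members called between the clones this moved the difference by at most 1.42 times. The calls themselves rest on how alike the difference was under both viruses, so this is no separate check. Among members named for NR6A1, none of which passed, dropping 1 library moved Tgfb3, Tgfbr3, Nog, Fst, Smad3 and Id2 by over 1.5 times. Of those named between the clones without a call, it moved Tgfb3, Acvr2a, Tgfbr3 and Fstl1 by over 1.5 times. At these depths a gene near 0.0274 FPKM with a transcript of 2000 bases rests on about 1 read.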
